A study of Mus musculus with 9 samples.

Results

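Glycolysis and hypoxia response genes were followed in the non-epithelial cells of the mammary gland, in mice fed ad libitum or under calorie restriction (CR). The genes were chosen by name, with earlier results of these data known. They were 22 genes of glycolysis and of the fate of pyruvate, 7 regulators of the hypoxia response and 9 hypoxia targets. Of these 38 genes, 32 were among the 11063 genes measured (18, 7 and 7 of the 3 groups). Pfkp, Aldoc, Eno1, Pdk1, Ero1l and Car9 were not analysed here. The cells were sorted as Lin-CD49fnegCD24neg from the #4 mammary glands of virgin female FVB/N mice, 6 weeks old at the start of the diets. The labels name no engineered allele and no drug for either diet. Cells came from 4 mice fed ad libitum, numbered 2 to 5, and from 5 mice under CR, numbered 1 to 5. CR lasted 8 weeks, and the sample notes give its food as 65% of the ad libitum intake. Each mouse gave 1 library, from 15000 cells and 30 ng of RNA, by a bulk form of MARS-Seq. This method reads the 3′ end of each transcript and counts each tagged molecule once. A lineage depletion before the sort removes endothelial and part of the blood and stromal cells, so that the libraries represent only what passed it.

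Glycolysis turns glucose into pyruvate in the cytosol. Its first steps spend ATP to trap and split the sugar, and its later steps return ATP and NADH. Pyruvate is then either reduced to lactate by lactate dehydrogenase or passed to the mitochondria through the pyruvate dehydrogenase complex. When oxygen is low, prolyl hydroxylases no longer mark the HIF alpha subunits for destruction by the VHL ubiquitin ligase. HIF1A or EPAS1 (HIF2A) then pairs with ARNT and binds short DNA elements, often with the core ACGTG. The pair raises the transcription of many glycolytic enzymes and of other targets. HIF activity is set mainly through the stability of the alpha subunits, so that their transcript level is not a reading of that activity.

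Values are normalized counts, the molecule counts after division by each library's size factor. As each molecule is counted at its 3′ end, gene length does not enter. Processed copies of Gapdh, Pgk1, Ldha and several other glycolytic genes lie elsewhere in the mouse genome, and the sources used here do not say how reads matching more than 1 place were counted. Levels of these genes set beside those of others, and shares and sums that hold them, are therefore uncertain. Values of single libraries are listed in the order of the mouse numbers. Means are given ± SD (n = 4 ad libitum-fed and n = 5 CR mice). Differences are log2 fold changes of CR against ad libitum feeding on the log2(normalized count + 1) scale from limma, with their SE. The added 1 shrinks changes of low genes, whereas a single library near 0 can enlarge them on this scale. Genes with an adjusted p no higher than 0.05 (Benjamini-Hochberg over all 6815 genes tested) are referred to as called. Of these genes 544 were called higher in CR (7.98%) and 623 lower (9.14%). Scaling to the fibroblast markers gave 95 higher and 803 lower, and upper quartile scaling 741 and 558. The median log2 fold change over all genes tested was 0.07, and scaling to the fibroblast markers shifted it by -0.34. The depth differed with the diet, with 382877 to 817030 counts per ad libitum library and 785301 to 1485963 per CR library. At a count of 0 as many as 3 counts remain possible, or 1.55 to 5.85 normalized counts by library. This limit covers counting error only.

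The make-up of the cells also differed with the diet. Summed T cell markers (18 of 20 listed genes measured) lay between 1865 and 3320 normalized counts in ad libitum libraries and between 124 and 260.2 in CR libraries, and all 16 tested were called lower. Summed macrophage markers (13 of 20 measured, 3 of 6 tested called lower) lay between 383 and 673 and between 100.4 and 502. Mast cell markers (6 of 8 measured, 4 of 4 tested lower) lay between 345 and 630.1 and between 29.1 and 133. Natural killer and B cell markers were also lower in sum (91.4 to 276 against 10.3 to 26.7, and 26.9 to 53.4 against 0 to 10.3). Fibroblast markers (20 of 20 measured, 8 called higher and 1 lower) lay between 14354 and 28133 and between 23915 and 30728. Epithelial markers (3 of 10 measured) summed to at most 11.9 in any library, and none of the 6 erythrocyte markers had a row. In bulk libraries fewer cells of a type and less RNA per cell cannot be told apart. Adding the mean level of the 16 tested T cell markers as a covariate left 0 of the 6815 genes called in limma (117 higher and 75 lower at an unadjusted p under 0.05), so that diet and T cell content cannot be told apart here for any gene below.

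Promoter windows in the RefSeq tables for GRCm38.p6, from 250 bases before to 50 after each annotated start, were searched. The search was for the core ACGTG and its reverse complement CACGT alone, so that other forms of the HIF element would be missed. The 2 spellings overlap where the letters read CACGTG. A window was found for 29 of the 32 genes. At least 1 match was present in 20 of these 29 genes (69.0%), against 5886 of 27025 genes in the tables (21.8%). Among windows, the shares were 23 of 40 (57.5%) and 6447 of 32851 (19.6%). By group, 11 of 18 glycolytic genes and 9 of 11 hypoxia genes had a match. A match describes letters only, and binding was not measured. The 27025 genes are not limited to the 11063 measured, and the members were chosen as glycolysis and hypoxia response genes. The shares are therefore not from comparable sets. The windows of 3 genes to which the results below return are shown 5′ to 3′ on the strand of the gene, with the matches in capitals. Hk2 is shown because it was the only member called, Ldha because it is the classical hypoxia-responsive enzyme of the pathway, and Bnip3 because it had the largest fitted difference among the tested hypoxia targets.

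Hk2, chr6:82774405-82774704, minus strand: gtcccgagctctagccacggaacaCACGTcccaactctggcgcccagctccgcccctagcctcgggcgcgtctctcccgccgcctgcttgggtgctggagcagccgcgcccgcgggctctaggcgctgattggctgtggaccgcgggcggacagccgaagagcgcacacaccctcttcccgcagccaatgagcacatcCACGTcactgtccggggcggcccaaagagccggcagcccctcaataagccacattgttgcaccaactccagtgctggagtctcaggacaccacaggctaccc

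Ldha, first of 2 windows, chr7:46845554-46845853, plus strand: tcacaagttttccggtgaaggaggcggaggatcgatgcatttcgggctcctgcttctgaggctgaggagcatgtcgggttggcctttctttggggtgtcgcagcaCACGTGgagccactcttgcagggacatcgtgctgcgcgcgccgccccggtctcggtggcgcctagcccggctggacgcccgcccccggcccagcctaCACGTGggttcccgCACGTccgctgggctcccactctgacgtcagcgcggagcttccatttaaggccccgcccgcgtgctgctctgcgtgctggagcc

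Bnip3, chr7:138909457-138909756, minus strand: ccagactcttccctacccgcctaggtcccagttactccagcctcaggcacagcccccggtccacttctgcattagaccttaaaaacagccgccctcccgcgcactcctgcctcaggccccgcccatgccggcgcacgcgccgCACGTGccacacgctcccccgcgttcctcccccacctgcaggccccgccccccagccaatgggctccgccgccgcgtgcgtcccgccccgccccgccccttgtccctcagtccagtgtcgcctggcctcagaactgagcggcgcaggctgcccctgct

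The Hk2 window held CACGT at 226 and 52 bases before the start. The Ldha window shown held CACGTG at 145 and 48 bases before the start and CACGT at 34, whereas the second Ldha window held no match. The Bnip3 window held 1 CACGTG, at 108 bases before the start. The windows of Gpi1, Pfkl, Tpi1, Eno2, Ldhb, Pdha1, Pfkfb4, Arnt and Vhl held no match, which says only that these letters are not in those stretches.

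Of the 16 glycolytic genes tested, only Hk2 was called in CR, and it was higher. In limma 0 were called lower, as in DESeq2 and edgeR. Scaling by library size gave 1 called higher and 2 lower (Pkm and Ldha), and scaling to the fibroblast markers 0 higher and 3 lower (Gapdh, Pkm and Ldha). Of all 6815 genes tested, scaling by library size called 414 higher and 699 lower. Scaling to the fibroblast markers called 95 higher and 803 lower, so that the lower calls of all genes rose with these scalings too. At an unadjusted p under 0.05, 4 of the 16 were lower in limma (25.0%, against 14.1% of all genes tested), 3 in DESeq2 (18.8%, against 12.9%) and 3 in edgeR (18.8%, against 15.3%). The DESeq2 share of 12.9% was taken over all 11063 genes, low ones included, and is therefore not a like background. Of the 16 fitted differences 11 were below 0 (68.8%, against 45.8% of all genes tested), and their median was -0.34. Relative to the median of all genes tested it was -0.40. Under each of these scalings and upper quartile scaling it was -0.40 too. A scaling shifts all genes of a library nearly alike, so that this agreement was set in advance and shows nothing further. With single libraries left out, the relative median was -0.45 (without ad libitum-fed mouse 2) to -0.29 (without CR mouse 5). With the T cell covariate it was 0.20. Hk2 was also the only member of either set whose diets did not overlap. Over all genes tested, 7.29% lay wholly above and 9.63% wholly below the ad libitum range in CR. The share called higher, 1 of 16, is therefore no larger than that over all genes.

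Hk2 encodes hexokinase 2, the insulin-responsive form of the enzyme that traps glucose in the cell as glucose 6-phosphate, and spans 82725025 to 82774454 on chromosome 6. Its normalized counts were 77.2, 77.9, 25.8 and 62.1 in the ad libitum-fed mice and 152, 126.1, 175, 96.0 and 106 in the CR mice. Every CR value lay above every ad libitum value, and ad libitum-fed mouse 4 was the lowest of all. The means were 60.7 ± 24.4 and 131 ± 32.5, a ratio of 2.15. The log2 fold change was 1.18 (SE 0.30, 95% interval 0.56 to 1.80, adjusted p = 0.00957). The exact two-sided permutation test gave 0.00794, the smallest p that 4 against 5 mice allow. Hk2 remained called in each of the 9 fits that leave out 1 library (0.82 to 1.34, adjusted p 0.0101 to 0.032), with the lowest value without ad libitum-fed mouse 4. When the libraries were scaled to the fibroblast markers, the difference was 0.83 and the call was lost (adjusted p = 0.0891). With the T cell covariate it was -0.89 (adjusted p = 1).

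Hk1 encodes the housekeeping hexokinase. Its normalized counts were 13.8 to 47.6 (29.6 ± 15.7) in ad libitum-fed mice and 19.4 to 26.7 (23.0 ± 2.70) in CR mice, and the difference was -0.20 (SE 0.35, adjusted p = 0.744). The share of Hk2 in the sum of both hexokinase transcripts was 61.9%, 80.0%, 40.8% and 81.8% in ad libitum-fed mice and 86.7%, 82.5%, 90.0%, 81.6% and 81.5% in CR mice. Hk2 was thus the larger of the pair in all libraries except that of ad libitum-fed mouse 4. The ranges of the share overlapped narrowly, with 66.1 ± 19.1% against 84.5 ± 3.77%.

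Gpi1 makes fructose 6-phosphate from glucose 6-phosphate. It had 205, 189, 213 and 214 normalized counts with ad libitum feeding and 131, 147, 146, 204 and 184 in CR mice. CR mouse 4 reached into the ad libitum range, and the other 4 CR values lay below it. The difference was -0.35 (SE 0.18, interval -0.73 to 0.03, adjusted p = 0.205).

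Phosphofructokinase catalyses the committed step of the pathway, and Pfkl, its liver-type subunit, was the more abundant of the pair measured except in CR mouse 1 (48.0% of their sum). Pfkl had 18.9, 37.0, 32.2 and 34.5 normalized counts with ad libitum feeding and 11.6, 19.4, 20.6, 20.1 and 19.7 in CR mice. Ad libitum-fed mouse 2 lay within the CR range, and CR mouse 1 lay below all others. The means were 30.6 ± 8.10 and 18.3 ± 3.77, and the difference was -0.70 (SE 0.31, adjusted p = 0.14). Pfkm, the muscle-type subunit, did not reach the limit for testing (7.37 ± 3.78 and 10.3 ± 4.14, exact permutation p = 0.397).

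Pfkfb3 and Pfkfb4 encode the bifunctional enzymes that make and degrade fructose 2,6-bisphosphate, the activator of phosphofructokinase. Pfkfb3 ranged from 28.4 to 68.2 normalized counts with ad libitum feeding and from 9.44 to 74.7 in CR mice (42.8 ± 17.6 and 44.7 ± 27.8, difference -0.18, SE 0.46, adjusted p = 0.837). Pfkfb4 ranged from 0 to 21.5 and from 10 to 36.1 (10.1 ± 8.85 and 18.2 ± 10.3), and its fitted difference of 1.31 had an SE of 0.69 (adjusted p = 0.214). That difference was 0.77 in DESeq2 and 0.70 in edgeR. It was 0.37 without ad libitum-fed mouse 3, where Pfkfb4 had no count.

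Aldoa splits fructose 1,6-bisphosphate and had the highest mean level of all glycolytic members, 24.4% of their mean sum. Its normalized counts were 516, 707, 593 and 699.9 in ad libitum-fed mice and 641, 438, 512, 538 and 380.0 in CR mice. The diets overlapped, with 3 of the 5 CR values below the whole ad libitum range. The difference was -0.34 (SE 0.18, interval -0.71 to 0.04, adjusted p = 0.212). Tpi1 interconverts the triose phosphates that result. It had 99.6, 119, 157 and 143 normalized counts against 87.9, 76.8, 98.8, 150.2 and 84.9. All CR values except that of mouse 4 lay below the ad libitum range, and the difference was -0.40 (SE 0.23, adjusted p = 0.254).

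Gapdh oxidizes glyceraldehyde 3-phosphate and is widely used as a reference transcript. It had 362, 518, 411 and 452 normalized counts with ad libitum feeding and 284, 209, 369, 302 and 12.9 in CR mice. CR mouse 5 stood apart, with 15 counts among the 911603 of its library. The means were 436 ± 66.2 and 235 ± 137, and the difference was -1.47 (SE 0.65, interval -2.83 to -0.11, adjusted p = 0.129). Without CR mouse 5 the difference was -0.60 (adjusted p = 0.0539), and it was -0.89 in DESeq2 and -0.90 in edgeR. Scaling to the fibroblast markers gave -1.82 and a call (adjusted p = 0.0212). CR mouse 5 was the lowest of the CR mice for 7 of the 16 tested glycolytic genes (43.8%, against 21.2% of all genes tested).

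Pgk1 and Pgam1, phosphoglycerate kinase and phosphoglycerate mutase, were low. Pgk1 had 14.4, 9.74, 23.2 and 13.8 normalized counts with ad libitum feeding and 10.6, 4.85, 19.99, 13.9 and 12.0 in CR mice (difference -0.35, SE 0.44, adjusted p = 0.639). Pgam1 had 6.28, 15.6, 6.44 and 12.1 against 11.6, 5.66, 17.6, 12.4 and 5.15 (difference 0.02, SE 0.50, adjusted p = 0.988). The diets overlapped for both genes, and the 95% intervals, -1.26 to 0.57 and -1.03 to 1.06, are wide at these low counts.

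Eno2, the enolase best known from neurons, had 33.2, 66.2, 25.8 and 36.2 normalized counts with ad libitum feeding and 34.8, 49.3, 74.1, 79.0 and 73.8 in CR mice. CR mice 3, 4 and 5 lay above all ad libitum values. The means were 40.4 ± 17.8 and 62.2 ± 19.2, and the difference was 0.64 (SE 0.31, adjusted p = 0.17).

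Pkm, pyruvate kinase, catalyses the last ATP-yielding step. It had 288, 314, 347 and 231 normalized counts with ad libitum feeding and 217, 183, 240.5, 190.5 and 235 in CR mice. Ad libitum-fed mouse 5 lay among the CR values, and the other 3 lay above them. The difference was -0.46 (SE 0.18, interval -0.83 to -0.09) and was not called (adjusted p = 0.085). It was called when ad libitum-fed mouse 5 was left out (-0.57, adjusted p = 0.0424), with scaling by library size (-0.55, adjusted p = 0.0444) and with scaling to the fibroblast markers (-0.81, adjusted p = 0.0491).

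**Figure D1:**
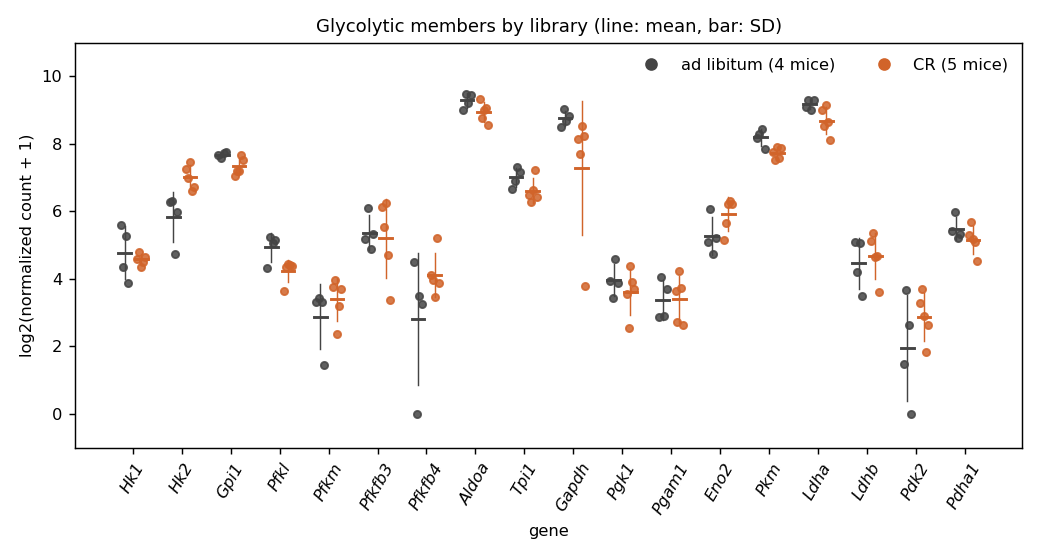
Levels of the 18 measured glycolytic genes in each library, as log2(normalized count + 1) on the vertical axis, with grey points for the 4 ad libitum-fed and orange points for the 5 CR mice. Horizontal lines are means and vertical bars SDs on that scale. The diets are separate only for Hk2, and the single low Gapdh point is CR mouse 5.

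Ldha favours the reduction of pyruvate to lactate. It had 548, 631, 518 and 629 normalized counts with ad libitum feeding and 518, 366, 571, 398 and 278 in CR mice. CR mouse 3 lay within the ad libitum range, mouse 1 at its lower edge and the other 3 below it. The means were 582 ± 57.4 and 426 ± 118, and the difference was -0.49 (SE 0.20, interval -0.90 to -0.08, adjusted p = 0.0982). It was called without CR mouse 3 (-0.61, adjusted p = 0.0447), with scaling by library size (-0.58, adjusted p = 0.0482) and with scaling to the fibroblast markers (-0.84, adjusted p = 0.0342).

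Ldhb, whose subunit favours the reverse reaction, ranged from 10.3 to 33.2 and from 11.2 to 40.4 normalized counts (23.3 ± 11.2 and 26.9 ± 11.1, difference 0.22, SE 0.40, adjusted p = 0.759). Ldha made up 94.1% to 98.4% of both transcripts in ad libitum-fed mice and 90.1% to 96.1% in CR mice. The Ldha transcript was thus the larger of the pair under both diets, within the uncertainty of Ldha levels given above.

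Pdha1, the catalytic alpha subunit of pyruvate dehydrogenase, had 42.2, 62.4, 36.1 and 39.6 normalized counts with ad libitum feeding and 38.7, 50.1, 35.3, 33.0 and 22.3 in CR mice (difference -0.33, SE 0.28, adjusted p = 0.452). Pdk2, a kinase that switches this enzyme off, had 1.80, 11.7, 5.15 and 0 against 8.70, 12.1, 6.47, 2.58 and 5.15. Several of these Pdk2 values are near the limit set by 3 counts, and the exact permutation test gave p = 0.27. The levels of both genes overlapped between the diets.

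Summed over the 18 glycolytic genes, the level was 2359, 2874, 2510 and 2641 normalized counts with ad libitum feeding and 2302, 1829, 2418, 2157 and 1489 in CR mice. The means were 2596 ± 218 and 2039 ± 378 and the ranges overlapped through CR mouse 3. Aldoa, Ldha, Gapdh, Pkm and Gpi1 made up 79.1% of the sum. Without Gapdh the sums were 2160 ± 152 and 1804 ± 250 (1476 to 2049 in CR mice against 1997 to 2356), still with overlap. As a share of all normalized counts of a library, the sum was 0.322% to 0.385% in ad libitum-fed mice and 0.190% to 0.312% in CR mice, and on that scale the diets did not overlap. No test was made on the sums. The fitted differences of the 5 most abundant genes were all below 0, whereas Hk2 was 1 of 5 genes above 0, with Pfkfb4, Eno2, Ldhb and Pgam1, as the plot of fold changes shows.

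**Figure D2:**
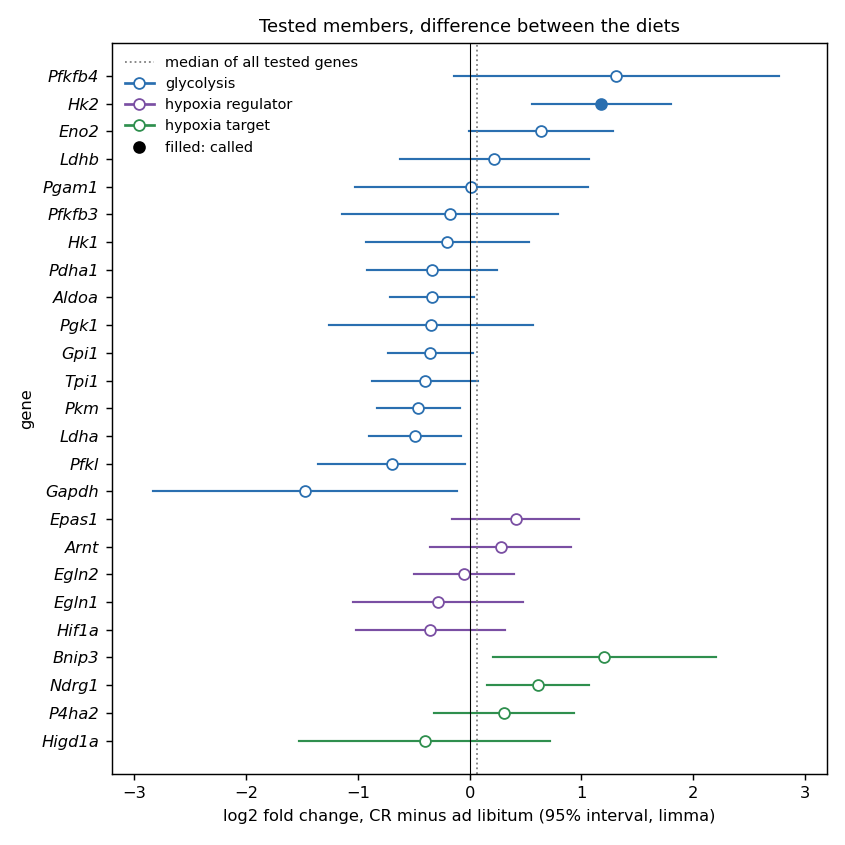
Log2 fold change of CR against ad libitum feeding for the 25 tested genes, with the 95% interval from limma, sorted within each role. The dotted line is the median of all 6815 genes tested (0.07), the filled point marks the only called gene, Hk2, and the 11 glycolytic points from Pfkfb3 down to Gapdh lie below 0.

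**Figure D3:**
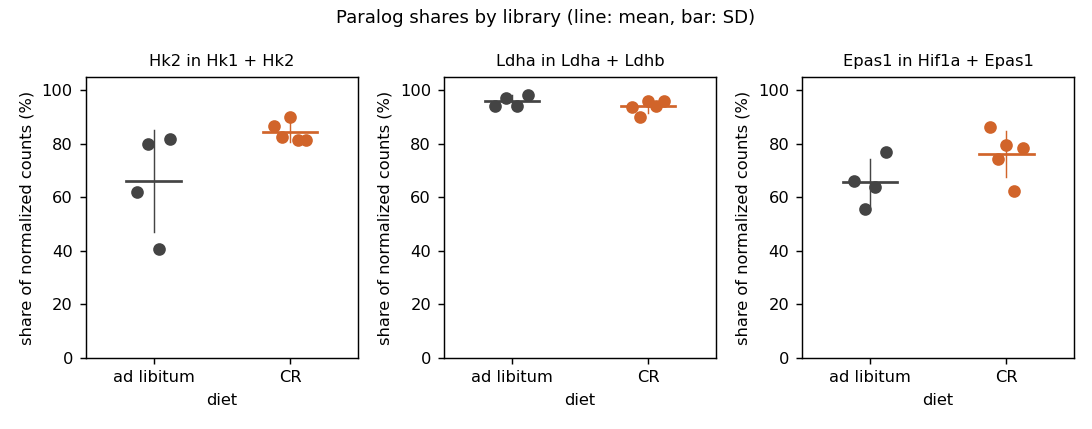
Share of 1 transcript in the sum of a pair, in percent of normalized counts, for each ad libitum-fed (4) and CR (5) mouse, with mean lines and SD bars. Hk2 varies from 40.8% to 81.8% in ad libitum-fed mice and from 81.5% to 90.0% in CR mice, Ldha is at 90.1% or more in every library, and the Epas1 share overlaps between the diets.

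In limma 0 of the 9 hypoxia genes tested were called in either direction, as in DESeq2 and edgeR. At an unadjusted p under 0.05, 2 of the 9 were higher in limma (Ndrg1 and Bnip3, 22.2%, against 16.4% of all genes tested), 2 in DESeq2 (against 10.9%) and 1 in edgeR (11.1%, against 13.9%). Here too the DESeq2 share of 10.9% was taken over all 11063 genes, low ones included. The median difference of the 9 genes was 0.28, with 5 above 0 and 4 below. The 5 regulators had a median of -0.05 and the 4 targets of 0.46. In this set no gene was free of overlap between the diets.

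Hif1a, the broadly expressed oxygen-regulated subunit, had 27.8, 31.2, 27.1 and 20.7 normalized counts with ad libitum feeding and 11.6, 28.3, 24.7, 23.2 and 18.9 in CR mice. CR mouse 1 was the lowest of all, and the ranges overlapped. The difference was -0.35 (SE 0.32, adjusted p = 0.493). Epas1, which encodes HIF2A, had 54.8, 39.0, 47.7 and 69.0 against 72.5, 82.4, 97.0, 38.7 and 68.6 (difference 0.41, SE 0.27, adjusted p = 0.332). CR mice 1, 2 and 3 were above and CR mouse 4 just below the ad libitum range of Epas1. Epas1 was the larger of the alpha subunits in every library, with 55.6% to 76.9% of their sum in ad libitum-fed mice and 62.5% to 86.2% in CR mice. Their shared partner Arnt had 18.9, 25.3, 19.3 and 41.4 normalized counts against 26.1, 28.3, 37.6, 25.3 and 36.9 (difference 0.28, SE 0.30, adjusted p = 0.577).

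Among the prolyl hydroxylases, Egln2 (PHD1) was the most abundant, with 138, 162, 86.3 and 171 normalized counts with ad libitum feeding and 116, 125, 148, 132 and 130.4 in CR mice. The CR values lay within the wider ad libitum range, and the difference was -0.05 (SE 0.21, interval -0.50 to 0.39, adjusted p = 0.894). Egln1 (PHD2), the main oxygen sensor for HIF1A, had 16.2, 17.5, 25.8 and 29.3 against 22.2, 32.3, 11.8, 11.9 and 16.3 (difference -0.28, SE 0.36, adjusted p = 0.648). Egln3 (PHD3), itself a HIF target, had 0.90, 27.3, 3.87 and 0 against 3.87, 1.62, 5.29, 0.52 and 0, with ad libitum-fed mouse 3 far above the rest (exact permutation p = 0.635). Vhl, which recognises hydroxylated HIF alpha, ranged from 5.85 to 20.6 and from 3.23 to 14.6 (11.7 ± 6.98 and 8.01 ± 4.13, exact permutation p = 0.429).

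**Figure D4:**
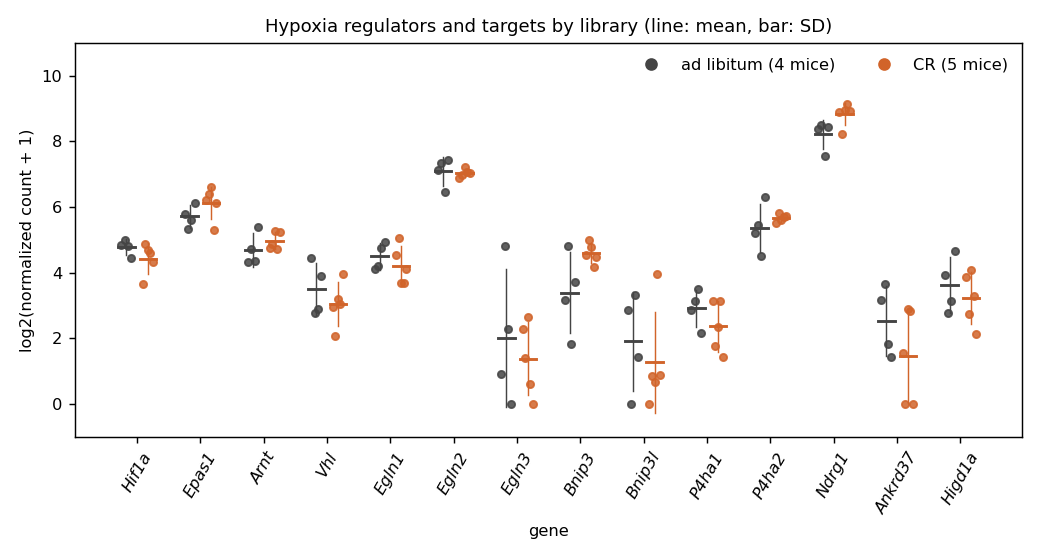
Levels of the 7 hypoxia regulators and 7 measured hypoxia targets in each library, as log2(normalized count + 1), with grey points for the 4 ad libitum-fed and orange points for the 5 CR mice, mean lines and SD bars. The diets overlap for every gene, and Ndrg1 is the most abundant of them.

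Of the targets, Ndrg1, a stress-responsive gene on chromosome 15 (66929318 to 66969641), was the most abundant. It had 332, 357, 188 and 341 normalized counts with ad libitum feeding and 474, 299.8, 499, 556 and 481 in CR mice (304 ± 78.2 and 462 ± 96.3). All CR values except that of mouse 2 lay above the ad libitum range. The difference was 0.61 (SE 0.22, interval 0.16 to 1.07) and was not called (adjusted p = 0.06). It was called without CR mouse 2 (0.76, adjusted p = 0.0186) and with upper quartile scaling (0.71, adjusted p = 0.0309). It was 0.40 without ad libitum-fed mouse 4 (adjusted p = 0.213) and 0.26 with scaling to the fibroblast markers (adjusted p = 0.553).

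Bnip3 encodes a mitochondrial receptor for mitophagy. It had 8.08, 27.3, 2.58 and 12.1 normalized counts with ad libitum feeding and 22.2, 30.7, 26.5, 17.0 and 21.4 in CR mice (12.5 ± 10.6 and 23.6 ± 5.20). The difference was 1.21 (SE 0.48, interval 0.20 to 2.21, adjusted p = 0.0922). Ad libitum-fed mouse 3 alone lay within the CR range, and without it the difference was 1.68 and was called (adjusted p = 0.0192). Without ad libitum-fed mouse 4 it was 0.69 (adjusted p = 0.299). Its relative Bnip3l was at or under the limit set by 3 counts in most libraries (4.25 ± 4.14 and 3.34 ± 6.22, exact permutation p = 0.563).

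P4ha1 and P4ha2 encode the catalytic subunits of collagen prolyl 4-hydroxylase. P4ha2 ranged from 21.9 to 77.6 and from 44.5 to 55.8 normalized counts (44.6 ± 23.7 and 50.3 ± 4.35, difference 0.31, SE 0.30, adjusted p = 0.53). P4ha1 was low (6.96 ± 2.87 and 4.75 ± 2.87, exact permutation p = 0.278). Higd1a, a mitochondrial protein induced by hypoxia, ranged from 5.85 to 24.1 and from 3.43 to 15.9 (difference -0.40, SE 0.54, adjusted p = 0.661). Ankrd37, a short ankyrin-repeat gene, was at 6.02 ± 4.72 and 2.92 ± 3.21 (exact permutation p = 0.246). The diets overlapped for all of these genes.

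Wider lists of both pathways, also chosen with earlier results of these data known, gave further genes. Of 57 other genes of glucose metabolism, 39 were measured and 25 tested, with 1 called higher and 1 lower (4.0% each, against 7.98% and 9.14% of all genes tested, median difference 0.15). Myc, a transcription factor that raises glycolytic genes, rose from 326 ± 33.3 to 568 ± 60.4 normalized counts (difference 0.80, adjusted p = 0.0015), with all CR values (497 to 654) above all ad libitum values (286 to 362). Adpgk, an ADP-dependent glucokinase, fell from 32.8 ± 10.5 to 16.0 ± 4.15 (difference -0.97, adjusted p = 0.0437). Its ranges overlapped. The call held without CR mouse 4 (adjusted p = 0.0342) or ad libitum-fed mouse 5 (0.027) and was lost without any 1 of the other 7 libraries (adjusted p 0.0582 to 0.159), with upper quartile scaling (0.0618) or without a filter (0.065). The glucose transporter Slc2a1 was at 129.9 ± 34.7 and 166 ± 74.0 (adjusted p = 0.479), and Pdk4, a kinase of the same family as Pdk2, at 15.4 ± 3.76 and 35.1 ± 18.1 (adjusted p = 0.0806). Slc2a1 and Pdk4 were singled out after their values had been seen.

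Of 57 other hypoxia response genes, 45 were measured and 34 tested, with 4 called higher (11.8%, against 7.98% of all genes tested) and 1 lower (2.9%, against 9.14%), and the median difference was 0.24. As this list was chosen with earlier results known, its shares are no test of the list against all genes. Angptl4, a secreted inhibitor of lipoprotein lipase, rose from 60.2 ± 36.4 to 279 ± 108 normalized counts (difference 2.29, adjusted p = 9.3e-05). Vegfa, the vascular growth factor, rose from 146 ± 59.5 to 325 ± 60.3 (difference 1.24, adjusted p = 0.00305). Adm, which encodes the vasodilator adrenomedullin, rose from 305 ± 61.6 to 539.8 ± 132 (difference 0.81, adjusted p = 0.00921). The diets did not overlap for these 3 genes, all of which encode secreted proteins. For Adm the gap was narrow, with 368.5 in CR mouse 2 against 366.3 in ad libitum-fed mouse 3.

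P4hb, the beta subunit shared by the collagen prolyl hydroxylases above and also a protein disulfide isomerase, rose from 441 ± 54.0 to 645 ± 94.7 normalized counts (difference 0.54, adjusted p = 0.0268), without overlap. The P4hb call was lost without CR mouse 1, 4 or 5 or without ad libitum-fed mouse 3 or 4 (adjusted p 0.0525 to 0.0818), and with scaling by library size (0.45, adjusted p = 0.059). Cxcr4, a chemokine receptor of leukocytes, fell from 63.4 ± 7.14 to 18.7 ± 9.22 (difference -1.83, adjusted p = 0.00073), without overlap. The T cell markers given above were lower in CR too, and a link between them and Cxcr4 was not tested. With the T cell covariate the Cxcr4 difference was -2.75 and was not called (adjusted p = 1), in the fit that called no gene. Angptl4, Vegfa and Cxcr4 stayed called with scaling to the fibroblast markers, whereas Myc, Adm and P4hb did not (adjusted p 0.272, 0.233 and 0.658).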

How the data were processed

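Gene expression was measured in 9 libraries, 1 per mouse. The authors trimmed reads with cutadapt, aligned them to mm10 with STAR, counted them with HTSeq over 1000 bases at the 3′ ends of RefSeq genes, collapsed copies by molecular identifier with a correction for saturation, and normalized with DESeq2. Their versions were not given in the sources used here. What the authors deposited is normalized signal, that is, counts divided by size factors, for 11063 genes. Between 99.98% and 100.0% of the values per library were whole multiples of 1 step to within 0.0051, which gave recovered counts (median 480190 in ad libitum and 974109 in CR libraries). On these counts DESeq2 called 533 genes higher and 871 lower in CR, and edgeR 457 and 661. The study's methods give another food percentage than the sample notes.

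As the deposited values are normalized, limma 3.58.1 (trend, R 4.3.3) was fitted to log2(normalized count + 1) of the 6815 genes with at least 10 normalized counts in at least 4 libraries, with diet as the only term and Benjamini-Hochberg adjustment. Genes below that limit were compared by two-sided exact permutation over all 126 assignments of the mice. DESeq2 1.42.0 was run on the recovered counts of all 11063 genes, and edgeR 4.0.16 on those of the 6815. Other scalings, filters, pseudocounts, a replicate block, a T cell covariate, the fold and count criteria of the study and leaving out each library were tried. No 2 libraries of a diet were duplicates (chi-square per degree of freedom at least 3.70). The labels give no batch. The fits were also run on simulated counts with the same dispersion for all genes, and the outcome is not reported here.

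The members and lists were chosen with earlier results of these data known, and 1 gene of the wider hypoxia list is not reported here. Called members, the most abundant enzyme of each step, HIF subunits and prolyl hydroxylases were named with every value, as were Ndrg1 and Bnip3, added after their values were seen, and of the other lists the called genes. Coordinates and promoter windows are from RefSeq for GRCm38.p6, with 32 and 29 of 32 genes matched. Windows of Epas1, Ndrg1 and Bnip3l were not used here.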

Additional observations from a re-analysis of the deposited data

Results flagged for a closer look

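A single library stood apart from the others of its diet for 6 of 64 groups of values tested (32 genes in both diets, by Dixon's test at the 95% level, on the log2(normalized count + 1) scale), and chance gives about 1 in 20. Pfkl was at 11.6 normalized counts in CR mouse 1, against 19.4 to 20.6 in the other CR mice. Pfkm was at 1.72, which is 1 count, in ad libitum-fed mouse 5, against 8.98 to 9.74. Gapdh was at 12.87 in CR mouse 5, against 209 to 369. Bnip3l was at 14.45 in CR mouse 4, against 0 to 0.86. Ndrg1 was at 188.14 in ad libitum-fed mouse 4, against 332 to 357, and at 299.83 in CR mouse 2, against 474 to 556. The cause was not tested for any of these values.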

How the results depend on the processing

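The limit for testing, which is set on normalized counts, was not reached by 7 of the 32 measured genes. Depth limits the low genes as well, since 3 counts correspond to 1.55 to 5.85 normalized counts by library. Of the 25 tested genes, 12 kept their direction and their side of the threshold in every fit that included them, except that with the T cell covariate. The filter at 30 normalized counts left 15 of the 25, and Higd1a passed the limit for testing in 5 of the 9 fits without 1 library. The cause was not tested for any of the changes below unless stated.

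The T cell level separates the diets completely, so that adding it leaves little of the diet to estimate. With it 0 glycolytic genes, 0 other glucose genes and 0 other hypoxia genes were called in either direction, and 0 of all genes tested. The median differences were 0.24 for glycolytic genes, -1.12 for hypoxia genes and 0.041 for all genes. The sign turned for 14 of the 25 tested genes, to 1.749 for Hk1, -0.889 for Hk2, 0.065 for Gpi1, 0.415 for Pfkfb3, 0.643 for Tpi1, 4.681 for Gapdh, -0.886 for Pgam1, 0.875 for Pdha1, 2.099 for Hif1a, -1.107 for Epas1, -1.783 for Arnt, -1.152 for Bnip3, -1.392 for P4ha2 and -1.12 for Ndrg1 (adjusted p = 1 for all). It also turned to 1.029 for Adpgk, -0.952 for Vegfa, -0.242 for Adm and -0.027 for P4hb.

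Scaling to the fibroblast markers gave 0 glycolytic genes higher and 3 lower (Gapdh, Pkm and Ldha), 0 other glucose genes higher and 2 lower, and 2 other hypoxia genes higher and 2 lower. All genes gave 95 higher and 803 lower, and the medians were -0.678 for glycolytic genes, -0.061 for hypoxia genes and -0.275 for all genes. The sign turned for Pgam1 (-0.292), Ldhb (-0.123), Arnt (-0.061) and P4ha2 (-0.037). Scaling by library size gave 2 glycolytic genes lower (Pkm and Ldha), 2 other glucose genes lower, a median of -0.022 for all genes and -0.067 for Pgam1. All genes then gave 414 higher and 699 lower. Upper quartile scaling gave 1 hypoxia gene higher (Ndrg1), 2 other glucose genes higher and 0 lower, a median of 0.163 for all genes and 0.045 for Egln2. Without a filter, 0 other glucose genes were lower.

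DESeq2 and edgeR gave Pfkfb3 at 0.075 and 0.073 and medians over all genes of 0.036 and 0.014. That median was 0.095 with the filter at 30 normalized counts and 0.053 with a pseudocount of 5. With the replicate block (the mouse number as a factor), 392 genes were higher and 511 lower, P4hb (adjusted p = 0.0958) and Adpgk (0.083) were not called, and Pgam1 was at -0.05. The mouse numbers did not pair the libraries, as deviations of the 4 same-numbered pairs correlated at -0.07 to 0.04 and those of other pairs at -0.11 to 0.14, and CR mouse 1 has no partner.

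When single libraries were left out, all genes gave 335 to 588 higher (335 without ad libitum-fed mouse 4) and 360 to 589 lower (360 without ad libitum-fed mouse 4 and 397 without mouse 3). Their median was 0.062 to 0.097. Glycolytic genes called lower numbered 0 to 1 (Pkm without ad libitum-fed mouse 5, Ldha without CR mouse 3) and hypoxia genes called higher 0 to 1 (Ndrg1 without CR mouse 2, Bnip3 without ad libitum-fed mouse 3). The median of the hypoxia genes was 0.023 (without ad libitum-fed mouse 4) to 0.532 (without mouse 5). Other glucose genes numbered 1 to 3 higher and 0 to 1 lower, and other hypoxia genes 3 to 7 higher (7 without ad libitum-fed mouse 5) and 1 to 2 lower. The sign turned within -0.496 to 0.075 for Hk1, -0.437 to 0.277 for Pfkfb3, -0.191 to 0.239 for Pgam1, -0.101 to 0.491 for Ldhb and -0.265 to 0.06 for Egln2.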
